A study of Mus musculus with 8 samples.

Results

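The 48 genes described here encode proteins of mitosis and of the G2/M phase that leads into it. They were chosen by name, and all 48 were found among the 11854 named entries of a gene expression table of mouse haematopoietic stem cells (HSCs), which maintain all blood lineages from the bone marrow. The table holds 8 libraries of polyadenylated RNA from sorted HSCs, 1 per mouse. Of these, 4 are labelled Nupr1-/- and 4 wild type (WT), all on a C57BL/6 background, and neither age nor sex is stated in the labels. Nupr1 encodes a small nuclear protein induced by stress, and the labels do not say how its allele was made. The series title names stem cell quiescence, so the comparison asks whether transcripts of dividing cells differed between the genotypes.

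Cell division is driven by CDK1 with its B-type cyclins, whose activity condenses the chromosomes, dissolves the nuclear lamina and builds the spindle. Kinetochores on the centromeres attach the chromosomes to spindle microtubules, the checkpoint kinases hold the cell until all are attached, and the anaphase promoting complex then destroys cyclin B and releases the sister chromatids. Most of these genes are switched off in quiescent cells and are transcribed in late S phase, G2 and mitosis. Adult HSCs are mostly quiescent, so in a bulk sample their level follows the few cells in cycle, and in such a sample fewer cells of a type and less RNA per cell cannot be told apart.

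Values are normalised reads, that is reads per gene divided by 1 size factor per library. Between 2296101 and 4769401 reads per library lay in the table. Nupr1 itself was read in every library, at 168 ± 35.0 normalised reads in libraries labelled Nupr1-/- and 246 ± 80.2 in WT libraries (SD, n = 4 each), and the groups overlapped (log2 difference -0.50, limma adjusted p = 0.433). Which part of the gene was deleted is not stated, so this level does not check the labels, and the groups are named as labelled. Trp53, which encodes p53, fell to 99.4 ± 28.2 in libraries labelled Nupr1-/-, against 548 ± 75.0 in WT libraries (log2 difference -2.49, limma adjusted p = 0.00155). Xist, transcribed from the inactive X of female cells, had 107.2 to 159.3 in libraries labelled Nupr1-/-. It had 11.8 in WT library 2 and 0 in the other WT libraries. Sex and genotype thus cannot be told apart in any comparison given here. All 12 HSC markers examined were present in the table. Not listed were 11 of 12 neutrophil markers, among them Elane and Mpo, and 7 of 10 B cell markers, among them Pax5 and Ebf1. Prtn3, the neutrophil marker that was listed, had 847 to 1445 normalised reads in libraries labelled Nupr1-/- and 983 to 2908 in WT libraries. Of 9 monocyte markers 3 were listed, and they summed to 1425 to 2621 and 1644 to 3185. The 3 listed B cell markers summed to 213 to 380 and 290 to 7634, with 2125 in WT library 3 and 7634 in WT library 4. Of 9 T and NK cell markers 4 were listed, and they summed to 188 to 507 and 215 to 705. WT library 2 stood apart from the other 7 libraries on the first principal component of all tested genes (-126.52, against 0.81 to 36.89). On the second component it lay at -21.85, near the libraries labelled Nupr1-/- (-61.26 to -24.12) and away from the other WT libraries (45.66 to 67.27). These components held 25.6% and 22.4% of the variance. The counts of genes that passed, and the genes whose call changed, are given with and without it.

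The mitotic genes were highest in 1 library of each genotype. Library 4 labelled Nupr1-/- held the highest value of 28 of the 48 genes and lay above the gene's own 8-library mean for 47 of them (97.9%). WT library 2 came next, with the highest value of 11 genes and 40 genes above their mean (83.3%). The lowest were library 2 labelled Nupr1-/-, with 11 genes above their mean (22.9%), and WT library 1, with 7 (14.6%). For all tested genes the share above the mean was 52.0% to 55.3% in every library. The highest value lay in library 4 labelled Nupr1-/- for 58.3% of the 48 genes and 8.6% of all tested genes. For WT library 2 these shares were 22.9% and 16.5%, which are closer to each other.

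**Figure D1:**
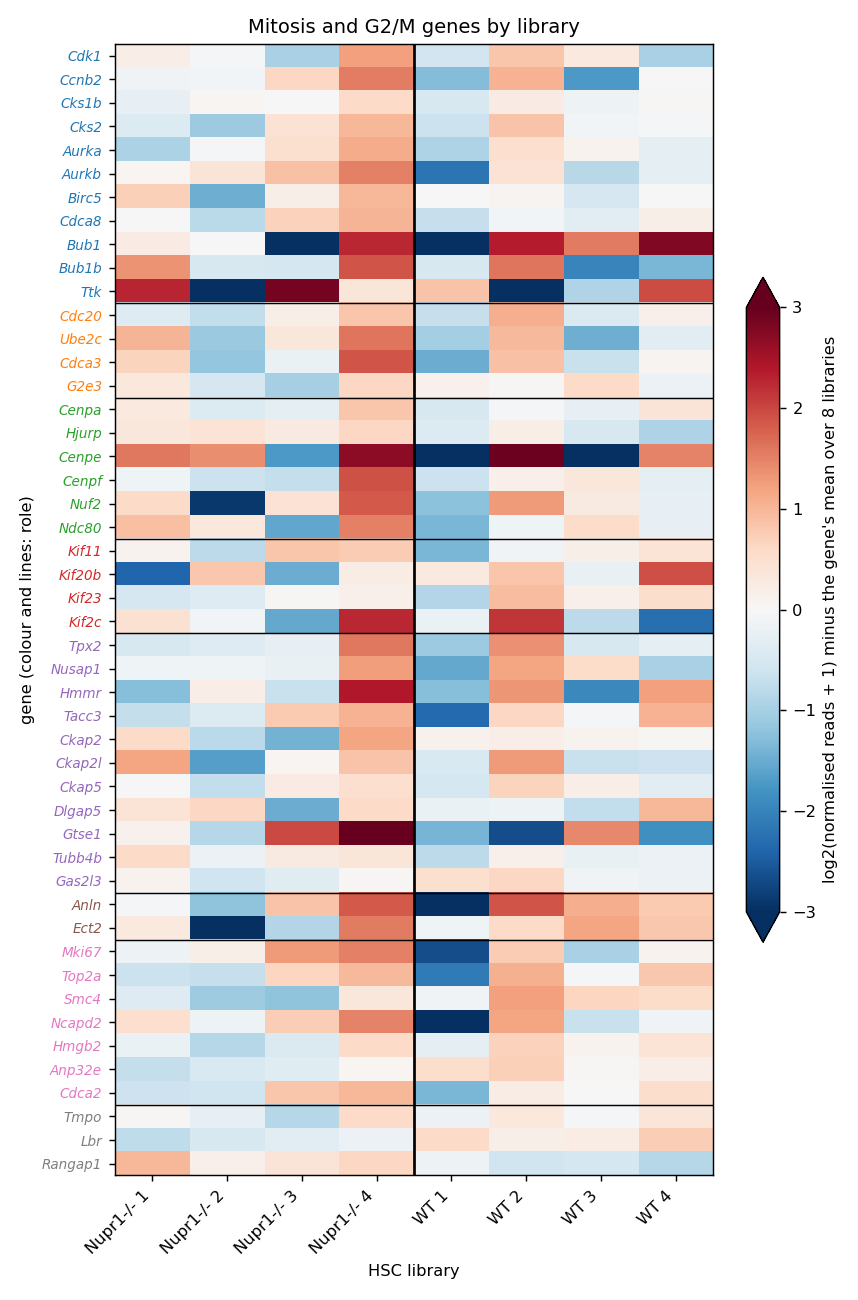
Heat map of the 48 mitosis and G2/M genes (rows, grouped and coloured by role) in the 8 HSC libraries (columns, Nupr1-/- left of the line and WT right). Colour gives log2(normalised reads + 1) minus the gene's mean over the 8 libraries, and values beyond 3 in either direction have the end colours. Library 4 labelled Nupr1-/- is above the mean in 47 genes and WT library 2 in 40, while WT library 1 is above it in 7.

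Added up over the 48 genes, libraries 1 to 4 labelled Nupr1-/- held 13701, 9661, 12991 and 20909 normalised reads, against 8543, 17700, 10816 and 12843 in WT libraries 1 to 4. The groups overlapped across most of this range, and each held 1 library well above its others. In 19 of the 48 genes, a pattern chosen after the values were seen, library 4 labelled Nupr1-/- and WT library 2 both exceeded all other 6 libraries, among them Cdk1, Ccnb2, Cks1b, Cks2, Aurka, Bub1b, Cdc20, Tpx2 and Top2a. The same held for 3.56% of all tested genes. A separate list of 122 other mitotic genes, of which none is among the 48, showed the pattern too: 101 lay above their mean in library 4 labelled Nupr1-/- (82.8%) and 88 in WT library 2 (72.1%), against 34 in WT library 1 (27.9%). In that list 24 genes were highest in the same pair of libraries. The listed genes act in the same process and were read in the same libraries, so they are no independent check of the pattern.

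Library 4 labelled Nupr1-/- had 3518618 reads and WT library 2 had 3340217, while WT library 1, the lowest in the mitotic genes, had 4769401. The summed level of the 12 HSC markers was 7652 in library 4 labelled Nupr1-/-, the lowest of the 8, and 8898 to 10287 in the other libraries labelled Nupr1-/-, against 9047 to 12077 in WT libraries. WT library 2 was at 10742. Of the 12 erythroid markers 7 were present, and their sum was 4289 to 6269 in libraries labelled Nupr1-/- and 2638 to 4877 in WT libraries, with 5995 in library 4 labelled Nupr1-/- and 4877 in WT library 2. Alas2 and Car1, which are strongly transcribed in committed red cells, were not listed. The part of read totals and of these markers in the mitotic pattern was not tested.

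**Figure D2:**
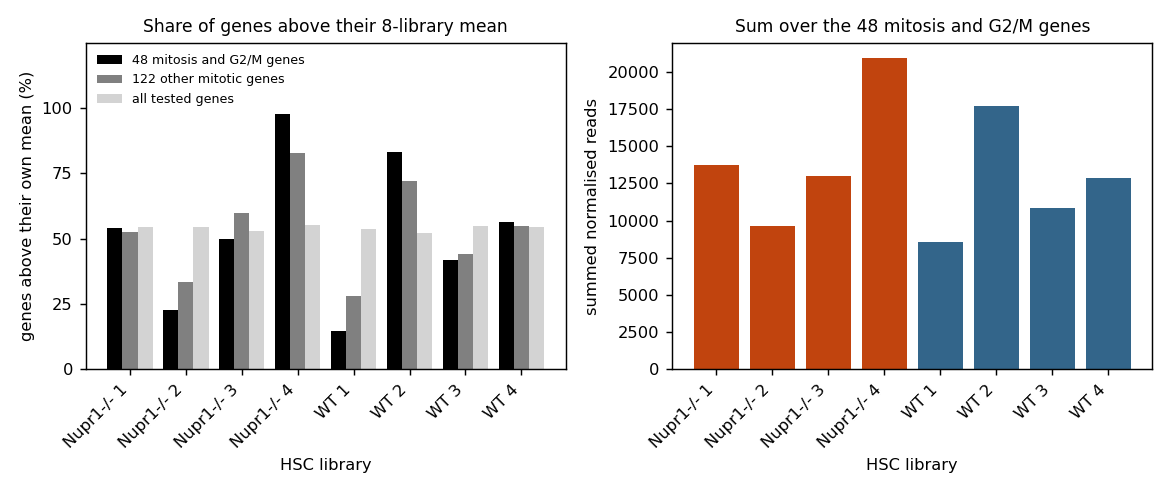
Left, share of genes above their own 8-library mean (%) in each HSC library for the 48 mitosis and G2/M genes, 122 other mitotic genes and all tested genes. Right, normalised reads summed over the 48 genes, with Nupr1-/- libraries left and WT libraries right. The 48 genes reach 97.9% in library 4 labelled Nupr1-/- and 83.3% in WT library 2, where all tested genes are at 55.3% and 52.0%.

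Between the genotypes, 2 of the 47 tested genes were higher, 1 was lower and 44 did not pass (limma on log2(normalised reads + 1), two-sided, Benjamini-Hochberg adjusted p under 0.05 over 10989 tested genes). Hjurp and Rangap1 were higher and Lbr was lower in libraries labelled Nupr1-/-. This is 6.38% of the tested mitotic genes, where 3.8% of all tested genes passed (1.68% higher and 2.12% lower). With 3 genes called the share is near the background and says nothing particular of the mitotic genes. At an unadjusted p under 0.05 there were 7 of the 47 (14.9%), against 19.7% of all tested genes. The median log2 difference of the 47 was 0.23 and that of all tested genes 0.03, and 31 of the 47 lay above 0 (66.0%, against 51.3%). This median changed sign without library 4 labelled Nupr1-/- (-0.09) or without WT library 1 (-0.01), and was 0.49 without WT library 2. Markers of megakaryocytes moved with the genotype: 10 of 13 were in the table, 4 of them rose (Pf4, Itga2b, Gp9 and Vwf), and their sum was 2012 to 2847 normalised reads in libraries labelled Nupr1-/- and 1160 to 1773 in WT libraries. Of the 5 tested erythroid markers Klf1 rose, and of the 12 HSC markers Mllt3 fell. B cell markers summed to 213 to 380 in libraries labelled Nupr1-/- and 290 to 7634 in WT libraries, highest in WT libraries 3 and 4. The part of these markers in the differences of the mitotic genes was not tested. Gtse1, which holds back p53 in G2, was too low to be tested, at 2.49 to 56.5 normalised reads in libraries labelled Nupr1-/- and 0 to 16.0 in WT libraries.

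**Figure D3:**
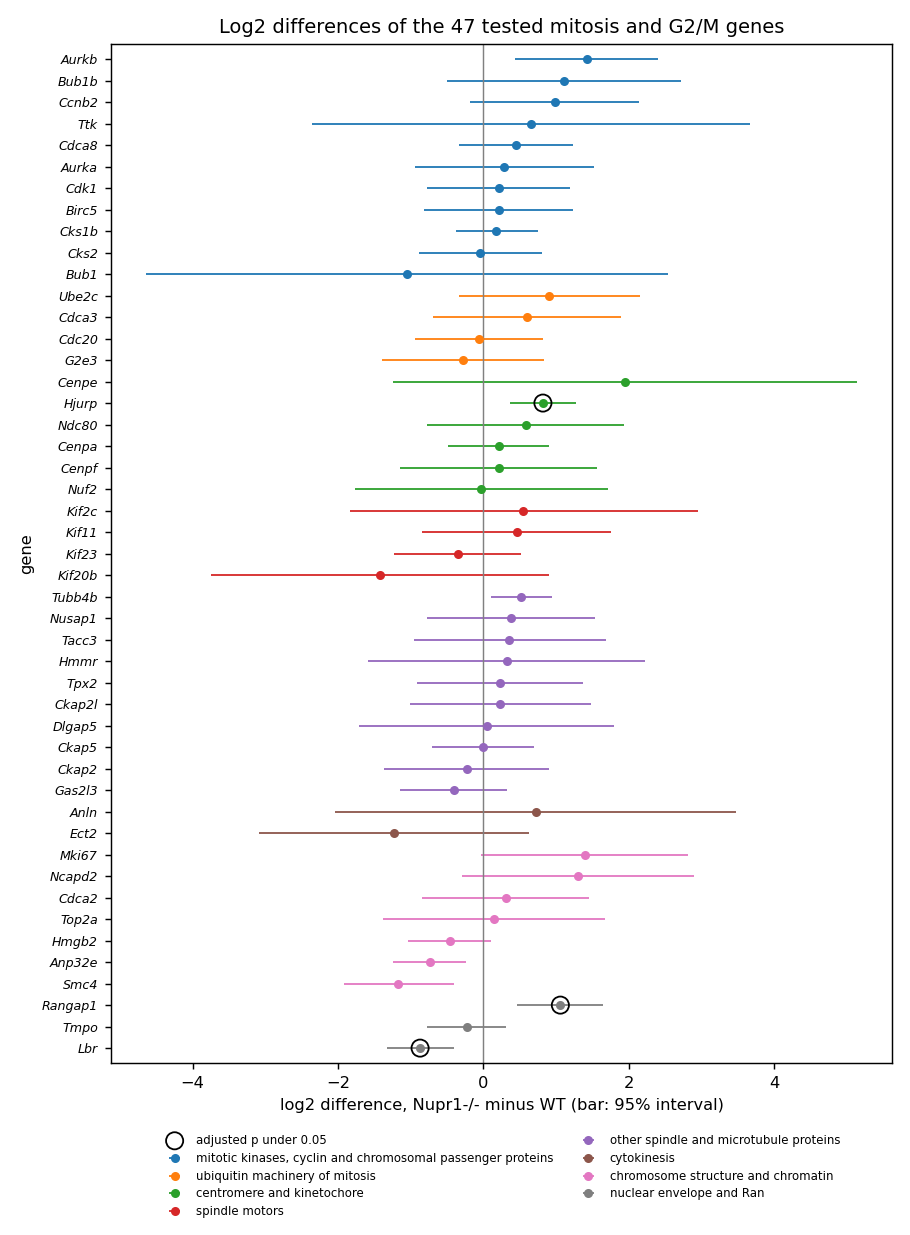
Log2 difference, Nupr1-/- minus WT (x axis), of the 47 tested mitosis and G2/M genes (y axis), grouped and coloured by role, with bars for the 95% interval from limma. Circles mark the genes with adjusted p under 0.05, namely Hjurp (0.82), Rangap1 (1.06) and Lbr (-0.87), and most other intervals span 0.

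Among the genes that start and drive mitosis, none of 11 passed in limma, DESeq2 or edgeR, and 1, Aurkb, had an unadjusted p under 0.05. Cdk1, the mitotic kinase itself, had 170.6, 143.4, 76.0 and 353.7 normalised reads in libraries 1 to 4 labelled Nupr1-/-, against 100.3, 267.0, 182.5 and 75.6 in WT libraries 1 to 4. The groups overlapped almost entirely (log2 difference 0.21, 95% interval -0.78 to 1.19, limma adjusted p = 0.847). Ccnb2, a B-type cyclin that activates it, had 199.8, 202.0, 334.0 and 624.1 in libraries labelled Nupr1-/- and 86.3, 444.4, 64.8 and 218.4 in WT libraries. Its log2 difference was 0.98 (95% interval -0.18 to 2.14, limma adjusted p = 0.338), with WT library 2 above 3 of the 4 libraries labelled Nupr1-/-.

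Cks1b and Cks2, small subunits that bind CDKs and help them reach substrates already phosphorylated, had close group means, and Cks2 varied more between libraries. Cks1b averaged 346 ± 87.5 normalised reads in libraries labelled Nupr1-/- and 303 ± 62.9 in WT libraries, and Cks2 averaged 343 ± 204 and 328 ± 152 (SD, n = 4 each). Per kilobase of exon Cks2 stood at 496 normalised reads in libraries labelled Nupr1-/- and 474 in WT libraries, and Cks1b at 307 and 269. On that scale the kinase Aurkb stood at 122 and 51.1, Cdk1 at 37.7 and 31.7, and Aurka, the centrosomal Aurora kinase, at 28.8 and 21.9.

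Aurkb, the kinase that corrects wrong attachments of chromosomes to the spindle, came nearest to the threshold in this group. It had 211.5, 268.1, 376.4 and 580.6 normalised reads in libraries 1 to 4 labelled Nupr1-/-, against 43.9, 274.9, 113.7 and 169.3 in WT libraries 1 to 4. WT library 2 lay inside the range of the libraries labelled Nupr1-/-, and the other WT libraries lay below it. The log2 difference was 1.42 ± 0.47 (SE, 95% interval 0.44 to 2.41), a 2.68-fold change that did not pass over all 8 libraries (limma adjusted p = 0.102). With each library left out in turn it passed in 1 of the 8 fits, that without WT library 2 (log2 difference 1.81, limma adjusted p = 0.0133). Across these fits the log2 difference ran from 0.93 to 1.81. The adjusted p was highest, at 0.235, without library 4 labelled Nupr1-/-.

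Aurkb works in the chromosomal passenger complex, whose other members here are Birc5 and Cdca8. Birc5 (survivin) had 183.7, 39.9, 125.5 and 225.0 normalised reads in libraries labelled Nupr1-/- and 111.4, 117.3, 78.8 and 111.9 in WT libraries. Its group means of 144 ± 80.3 and 105 ± 17.6 (SD, n = 4 each) differed by less than the spread among libraries labelled Nupr1-/- (limma adjusted p = 0.848). Cdca8 (borealin), which ties the complex to the centromere, averaged 272 ± 135 and 183 ± 46.1 (limma adjusted p = 0.539). Whether the subunits differed from each other was not tested.

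The spindle checkpoint kinases Bub1 and Ttk, and their partner Bub1b, were the least even genes of the group. Bub1 was at 0 reads in library 3 labelled Nupr1-/- and in WT library 1, and at 166.3 normalised reads in WT library 4. With 0 reads a level of up to 2.65 normalised reads in that library labelled Nupr1-/- and 2.09 in WT library 1 is allowed, which covers counting error only. Ttk was at 0 in library 2 labelled Nupr1-/- and at 135.2 in library 3 of that group, against 0.985 to 71.8 in WT libraries. Bub1b had 358.7, 101.0, 96.3 and 519.4 in libraries labelled Nupr1-/- and 101.0, 428.6, 34.9 and 53.7 in WT libraries. With all 8 libraries its log2 difference was 1.11 (limma adjusted p = 0.442). Of the fits with a library left out it passed only in that without WT library 2 (log2 difference 1.83, limma adjusted p = 0.0495).

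The 4 genes of protein destruction in mitosis did not pass in limma, DESeq2 or edgeR, and 0 had an unadjusted p under 0.05. Cdc20, which activates the anaphase promoting complex, had 131.2, 103.5, 193.5 and 309.3 normalised reads in libraries labelled Nupr1-/-, against 107.2, 368.5, 126.6 and 191.2 in WT libraries, with a log2 difference of -0.06 (95% interval -0.94 to 0.82; 0.30 without WT library 2). Ube2c, the ubiquitin-conjugating enzyme of that complex, had 405.4, 92.3, 252.7 and 607.4 in libraries labelled Nupr1-/- and 98.2, 394.2, 71.8 and 161.7 in WT libraries. Its log2 difference of 0.91 (95% interval -0.33 to 2.16) did not pass (limma adjusted p = 0.412). It was 1.39 without WT library 2 (limma adjusted p = 0.103) and ran from 0.53 to 1.44 with each library left out in turn. The adjusted p was then highest, at 0.664, without library 4 labelled Nupr1-/-. Cdca3, which helps to degrade the mitotic inhibitor WEE1, averaged 286 ± 250 and 168 ± 113 (SD, n = 4 each), and G2e3, a ubiquitin ligase named for its G2/M expression, averaged 62.0 ± 30.1 and 70.0 ± 16.1.

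Hjurp, the chaperone that places the histone variant CENP-A at centromeres, was the centromere gene that rose. It had 1203.1, 1258.1, 1133.6 and 1468.5 normalised reads in libraries 1 to 4 labelled Nupr1-/-, against 709.5, 1072.1, 674.0 and 501.1 in WT libraries 1 to 4. All 4 libraries labelled Nupr1-/- lay above all 4 WT libraries, a separation seen in this direction for 5.78% of all tested genes, and WT library 2 lay closest to them. The log2 difference was 0.82 ± 0.22 (SE), a 1.77-fold change (limma adjusted p = 0.0425), which passed in DESeq2 (adjusted p = 0.0148) and not in edgeR with TMM factors (0.0739). With each library left out in turn it passed in 1 of the 8 fits, the one without WT library 2 (adjusted p = 0.00353), and its adjusted p was highest, at 0.123, without WT library 4. Its SD on the log2 scale was 0.16 in libraries labelled Nupr1-/-, the smallest of the 48 genes in that group, and 0.45 in WT libraries. The gene lies on the minus strand of chromosome 1 (mm10, GENCODE M21, chr1:88262471-88277633).

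Cenpa, which encodes CENP-A itself, had 275.6, 169.6, 182.0 and 397.2 normalised reads in libraries labelled Nupr1-/- and 159.4, 216.8, 188.4 and 291.7 in WT libraries. The groups overlapped (log2 difference 0.21, 95% interval -0.49 to 0.90, limma adjusted p = 0.776). Per kilobase of exon Hjurp stood at 152 normalised reads in libraries labelled Nupr1-/- and 88.7 in WT libraries, and Cenpa at 43.7 and 36.5.

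The outer kinetochore genes were low and uneven. Cenpe, the kinesin that carries chromosomes to the spindle equator, had 52.5, 46.1, 4.42 and 113.9 normalised reads in libraries labelled Nupr1-/-, against 0, 137.0, 0 and 49.9 in WT libraries. Its fitted log2 difference of 1.95 had a 95% interval of -1.24 to 5.14 and was 3.26 without WT library 2, 0.22 in DESeq2 and 0.23 in edgeR. The group means of 54.2 ± 45.1 and 46.7 ± 64.6 (SD, n = 4 each) were close. Ndc80 and Nuf2, the 2 partners that grip the microtubule together, averaged 102 ± 68.9 and 58.4 ± 29.3, and 103 ± 90.7 and 76.4 ± 54.7. Cenpf, a large protein of the kinetochore and nuclear matrix, reached 200.9 in library 4 labelled Nupr1-/- and lay between 31.8 and 66.8 in the other 7 libraries.

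None of the 4 spindle motors passed in limma, DESeq2 or edgeR, and 0 had an unadjusted p under 0.05. Kif23, a motor of the central spindle, had 89.0, 97.3, 129.9 and 141.7 normalised reads in libraries labelled Nupr1-/-, against 68.2, 242.4, 140.6 and 183.7 in WT libraries (log2 difference -0.35, limma adjusted p = 0.681; -0.10 without WT library 2). Kif20b, a motor of late cytokinesis, stood at 1.44 normalised reads per kilobase of exon in libraries labelled Nupr1-/- and 3.37 in WT libraries, and its mean over all 8 libraries, 2.41, was the lowest of the 47 tested genes. Kif11, which pushes the spindle poles apart, averaged 64.7 ± 29.0 and 47.1 ± 20.6 (SD, n = 4 each). Kif2c, which takes microtubules apart at the centromere, reached 73.1 in library 4 labelled Nupr1-/- and 68.0 in WT library 2, with 2.27 to 20.4 in the other 6 libraries.

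The other spindle genes were headed by Tubb4b, a beta tubulin that is also part of microtubules outside mitosis. It had 3753.6, 2212.0, 3048.1 and 3236.1 normalised reads in libraries labelled Nupr1-/-, against 1448.3, 2795.5, 2135.7 and 2229.7 in WT libraries. Of the libraries labelled Nupr1-/-, 3 lay above all WT libraries and library 2 lay among them. The log2 difference was 0.52 ± 0.20 (SE) and did not pass (limma adjusted p = 0.161), while without WT library 2 it was 0.66 (adjusted p = 0.0366). With each library left out in turn it ran from 0.34 to 0.67 and passed in 1 of the 8 fits. The adjusted p was highest, at 0.384, without library 1 labelled Nupr1-/-. At 1467 normalised reads per kilobase of exon in libraries labelled Nupr1-/- and 1031 in WT libraries, Tubb4b was the most abundant of the 48 genes.

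None of the 10 tested genes of this group passed in limma, DESeq2 or edgeR, and 1, Tubb4b, had an unadjusted p under 0.05. Gas2l3, which links actin and microtubules in cytokinesis, had the second smallest p of the group and ran the other way, at 133 ± 29.5 normalised reads in libraries labelled Nupr1-/- and 179 ± 49.7 in WT libraries (SD, n = 4 each; limma adjusted p = 0.543). Tpx2, which activates Aurora A on the spindle, was 347.2 in library 4 labelled Nupr1-/- and 83.1 to 97.2 in the other libraries of that group, against 301.5 in WT library 2 and 54.3 to 96.0 in the other WT libraries. Nusap1, which bundles microtubules, was 257.4 in library 4 labelled Nupr1-/- and 91.9 to 99.2 in the others, against 248.3 in WT library 2 and 36.9 to 158.5 in the other WT libraries. For both genes the spread within a genotype exceeded the difference between genotypes. Log2 differences of Hmmr, Tacc3, Ckap2, Ckap2l, Ckap5 and Dlgap5 ran from -0.23 (Ckap2) to 0.36 (Tacc3).

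Neither cytokinesis gene passed in limma, DESeq2 or edgeR, and 0 had an unadjusted p under 0.05. Anln, an actin scaffold of the cleavage furrow, had 35.0, 15.0, 66.3 and 132.4 normalised reads in libraries labelled Nupr1-/-, against 0, 137.0, 77.8 and 63.5 in WT libraries. Its log2 difference of 0.72 turned to -0.90 without WT library 1, where it had no read, and was -0.15 in edgeR and -0.16 in DESeq2. Ect2, which switches on RhoA at the furrow, had 45.2, 2.49, 19.4 and 109.3 in libraries labelled Nupr1-/- and 33.4, 55.2, 84.7 and 65.0 in WT libraries (log2 difference -1.23, 95% interval -3.09 to 0.63). In DESeq2 and edgeR it was -0.43, and with 1 library left out it ran from -1.95 without library 4 labelled Nupr1-/- to -0.29 without library 2 labelled Nupr1-/-.

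Of the chromosome and chromatin genes, 0 of 7 passed in limma or edgeR, 2 had an unadjusted p under 0.05 and the same 2, Smc4 and Anp32e, passed in DESeq2, where 7.05% of all tested genes did. Both were lower in libraries labelled Nupr1-/-. Smc4, a core ATPase of condensin, had 201.2, 124.7, 113.1 and 334.3 normalised reads in libraries labelled Nupr1-/-, against 244.4, 624.7, 413.8 and 388.5 in WT libraries. Library 4 labelled Nupr1-/- lay above WT library 1, and the other 3 libraries labelled Nupr1-/- lay below all WT libraries. The log2 difference was -1.17 ± 0.36 (SE; limma adjusted p = 0.0798; DESeq2 -1.11, adjusted p = 0.0442). Without WT library 2 it was -0.95 (limma adjusted p = 0.110), and without library 4 labelled Nupr1-/- it passed (adjusted p = 0.0423). Anp32e, the chaperone that removes the histone variant H2A.Z, had 319.4, 379.1, 407.3 and 549.1 in libraries labelled Nupr1-/- and 761.7, 857.3, 537.4 and 602.4 in WT libraries, a log2 difference of -0.74 ± 0.24 (SE; limma adjusted p = 0.0899; DESeq2 -0.74, adjusted p = 0.0407).

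Mki67, whose protein Ki-67 coats mitotic chromosomes and marks cycling cells, ran upward but unevenly. It had 221.7, 278.1, 600.8 and 705.6 normalised reads in libraries labelled Nupr1-/-, against 38.3, 418.8, 124.6 and 264.5 in WT libraries. WT library 2 lay in the middle of the libraries labelled Nupr1-/-, and the log2 difference of 1.40 (95% interval -0.03 to 2.82) did not pass (limma adjusted p = 0.264). It was 1.88 without WT library 2 (limma adjusted p = 0.0726) and ran from 0.74 to 1.88 with each library left out in turn. The adjusted p was then highest, at 0.426, without library 3 labelled Nupr1-/-. Top2a, the topoisomerase that untangles sister chromatids, had 240.6, 234.4, 592.8 and 736.1 in libraries labelled Nupr1-/- and 86.3, 790.3, 358.9 and 659.8 in WT libraries. Its log2 difference was 0.15 (95% interval -1.38 to 1.68, limma adjusted p = 0.932), 0.53 without WT library 2 and -0.07 in DESeq2 and edgeR. Ncapd2, another condensin subunit, averaged 335 ± 159 in libraries labelled Nupr1-/- and 195 ± 182 in WT libraries, while Smc4 of the same complex averaged 193 ± 102 and 418 ± 157 (SD, n = 4 each). Hmgb2, a DNA-bending chromatin protein, was the most abundant of these genes at 1002 ± 446 and 1330 ± 369.

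**Figure D4:**
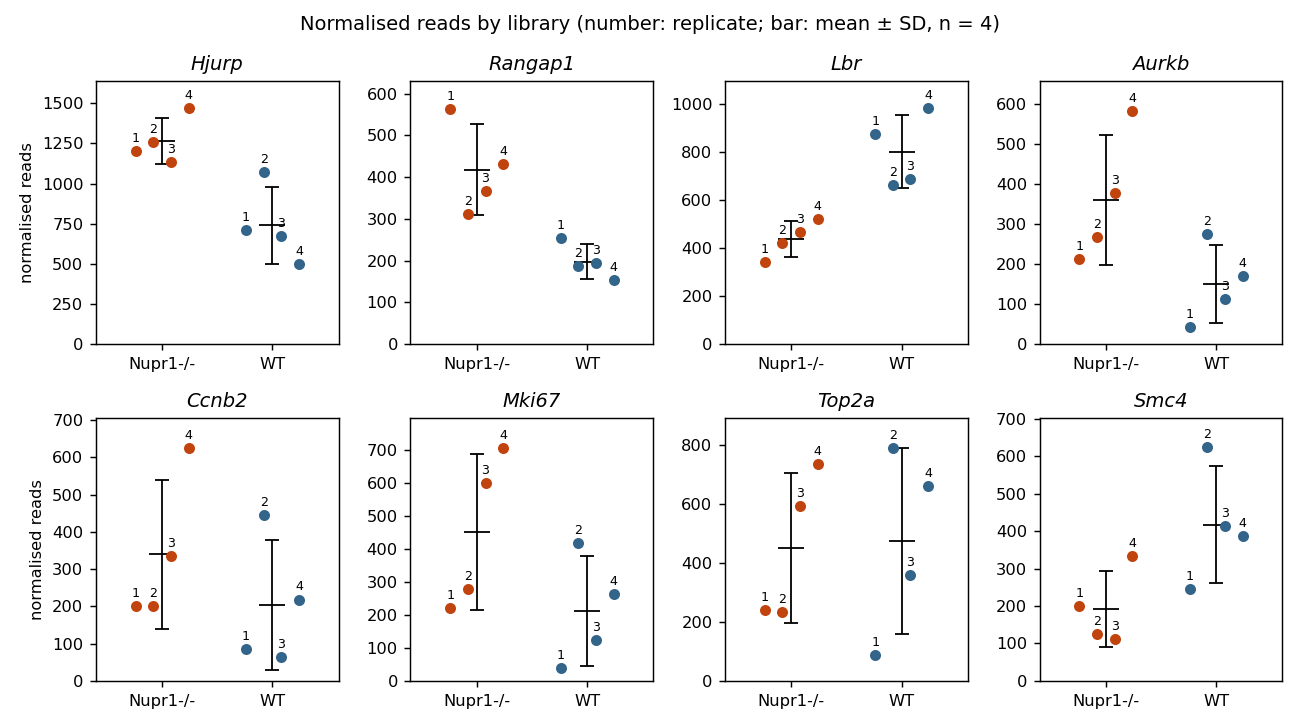
Normalised reads (y axis, from 0) of 8 genes in each library, Nupr1-/- left of WT. Points are libraries with their replicate number, and bars give the mean ± SD (n = 4). Hjurp, Rangap1 and Lbr separate the groups, whereas WT library 2 lies within or above the range of the libraries labelled Nupr1-/- for Aurkb, Ccnb2, Mki67 and Top2a.

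The nuclear envelope genes moved in opposite directions. Rangap1, which stimulates GTP hydrolysis by Ran and sits at nuclear pores and kinetochores, had 562.9, 311.7, 365.8 and 430.6 normalised reads in libraries 1 to 4 labelled Nupr1-/-, against 254.8, 187.2, 195.4 and 154.2 in WT libraries 1 to 4. All 4 libraries labelled Nupr1-/- lay above all WT libraries, as in 2 of the 47 tested mitotic genes and 5.78% of all tested genes. It rose 2.09-fold (log2 difference 1.06 ± 0.28, SE, limma adjusted p = 0.0425). Lbr, the lamin B receptor that anchors chromatin and lamina to the inner nuclear membrane, had 344.2, 422.7, 465.6 and 520.4 in libraries labelled Nupr1-/- and 875.9, 664.1, 687.0 and 983.3 in WT libraries. All 4 libraries labelled Nupr1-/- lay below all WT libraries, which held for 1 of the 47 in this direction and for 5.91% of all tested genes. It fell 1.83-fold (log2 difference -0.87 ± 0.22, SE, limma adjusted p = 0.0360). Tmpo, which encodes the lamina-associated LAP2 proteins, averaged 773 ± 311 and 862 ± 158 (SD, n = 4 each; limma adjusted p = 0.661).

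With each library left out in turn, Rangap1 passed in 1 of the 8 fits and Lbr in 2, with the highest adjusted p, 0.165 and 0.126, without library 1 labelled Nupr1-/-. Both passed in DESeq2 (adjusted p = 0.00632 and 0.00431) and in edgeR with TMM factors (0.0484 and 0.0455). Lbr lies at chr1:181815335-181843046 and Rangap1 at chr15:81704248-81745530, both on the minus strand. Exons of Lbr overlap those of Dnah14 and Gm26004 over 509 bases, and exons of Rangap1 those of Zc3h7b over 65 bases on the other strand. The library kit marks no strand, so reads there cannot be assigned.

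GC content moved with the groups. Each library's deviations from the 8-library means were correlated with transcript GC content across all tested genes, which are not independent replicates. Spearman's rho was 0.15 to 0.301 in the libraries labelled Nupr1-/- and -0.303 to -0.138 in WT libraries. The transcript of Rangap1 has 55.36% GC and that of Hjurp 50.23%, while that of Lbr has 44.25%, of Anp32e 44.56% and of Smc4 40.2%. After a smooth trend on GC content and transcript length had been subtracted library by library, the log2 difference was 0.65 for Rangap1, 0.72 for Hjurp and -0.60 for Lbr, and none of the 3 passed (limma adjusted p = 0.350, 0.179 and 0.259). It was -0.60 for Smc4 and -0.50 for Anp32e (limma adjusted p = 0.503 and 0.404). In that fit 0 of the 47 mitotic genes and 0.255% of all tested genes passed. The median log2 difference of the 47 was 0.38, and 38 lay above 0.

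Without WT library 2, 7 of the 47 genes passed, 6 higher and 1 lower, where 4.19% of all tested genes were called higher and 3.96% lower. The 3 genes of the full comparison were among them, and the others were Aurkb, Ccnb2, Bub1b and Tubb4b. Their folds against the remaining 3 WT libraries were 3.50 for Aurkb, 2.81 for Ccnb2, 3.55 for Bub1b and 1.58 for Tubb4b. For each of these genes WT library 2 held the highest WT value, so leaving it out raises the difference. For Aurkb and Ccnb2 the limma adjusted p was 0.235 and 0.571 without library 4 labelled Nupr1-/-. Without library 4 labelled Nupr1-/-, 2 passed, Smc4 and Lbr, both lower, and 0 passed in each of the 6 fits without another library.

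The rest of the mitotic machinery was described with 124 further genes, of which 122 were in the table and 121 could be tested. Of these, 1 rose, 1 fell and 119 did not pass (1.65%, against 3.8% of all tested genes), with a median log2 difference of 0.16. Ncaph2, a subunit of condensin II, rose to 1092 ± 313 normalised reads in libraries labelled Nupr1-/-, against 585 ± 196 in WT libraries (SD, n = 4 each; log2 difference 0.91, limma adjusted p = 0.0466). It did not pass in edgeR, without the filter on low values or with the replicate block, and it passed in 1 of the 8 fits with a library left out, that without WT library 2. Stag2, a cohesin subunit that holds sister chromatids together, fell to 151 ± 66.2 in libraries labelled Nupr1-/-, against 381 ± 102 in WT libraries (log2 difference -1.39, limma adjusted p = 0.0355). It passed in edgeR and DESeq2, and in 2 of the 8 fits with a library left out, those without library 4 labelled Nupr1-/- and without WT library 2. With the GC trend removed neither passed (log2 difference 0.49 and -0.66). Exons of Ncaph2 overlap those of Sco2 and Tymp on the other strand over 829 of 4198 bases. Exons of Stag2 overlap those of Gm37564 over 28 bases. Without strand in the library kit, reads there cannot be assigned.

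Of the 14 transcriptional regulators of mitotic genes in that list, 3 were highest in library 4 labelled Nupr1-/- (Foxm1, Mybl2 and E2f4) and 3 in WT library 2 (Lin54, Rbl1 and Tfdp1), while Lin9 and Lin52 were lowest in WT library 2. Foxm1, an activator of G2/M genes, had 107.9, 43.6, 53.0 and 275.0 normalised reads in libraries 1 to 4 labelled Nupr1-/-, against 13.2, 202.0, 21.9 and 117.2 in WT libraries 1 to 4. Mybl2 (B-MYB), which joins the MuvB complex on their promoters, had 90.4, 54.9, 165.2 and 187.0 in libraries labelled Nupr1-/- and 0, 169.5, 57.8 and 23.4 in WT libraries. Neither passed (limma adjusted p = 0.610 and 0.315), and each was highest in library 4 labelled Nupr1-/- and next in WT library 2. Plk1, the polo kinase of mitotic entry, Ccnb1 and Ccna2 did not pass either, with log2 differences of 0.33, -0.34 and -0.34. Among the 14 regulators only Rbbp4 had groups that did not overlap, as 5.91% of all tested genes did in this direction. It had 96.0 to 151 in libraries labelled Nupr1-/- and 241 to 266 in WT libraries (log2 difference -1.04, limma adjusted p = 0.0685). Rbbp4 passed in DESeq2 but not in edgeR, and with the GC trend removed its log2 difference was -0.81 (limma adjusted p = 0.286).

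Promoters of such genes are known for the cell cycle genes homology region (CHR), bound by the MuvB complex, and for CCAAT boxes, bound by NF-Y. RefSeq promoter windows on GRCm38.p6, from 250 bases before to 50 after an annotated start, were available for 43 of the 48 genes. The CHR core TTTGAA, searched on both strands, was found in 33 of the 43 (76.7%), against 14.2% of the tested genes with a window and 20.2% of all genes with one. CCAAT, also on both strands, was found in 33 (76.7%), against 43.4% and 41.1%. Both were found in 27 (62.8%), against 5.9% and 7.97%. The motifs can share an end base and were counted separately, and a match is a description of letters, not of a bound site. In the other mitotic genes, 37 of 105 (35.2%) held TTTGAA and 60 (57.1%) CCAAT.

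Of 45 matches to the CHR core in the windows of the mitotic genes, 36 (80%) had their middle between 100 bases before and 50 after the start. For the 1364 matches in the other tested genes the share was 36.3%. The median position was -15 in the mitotic genes and -135.5 in the others. Among genes with a window, all 4 spindle motors, both cytokinesis genes, all 5 chromosome and chromatin genes and all 3 nuclear envelope genes held the core, as did 7 of 10 kinase and passenger genes, 3 of 4 ubiquitin genes, 4 of 6 centromere genes and 5 of 9 other spindle genes.

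**Figure D5:**
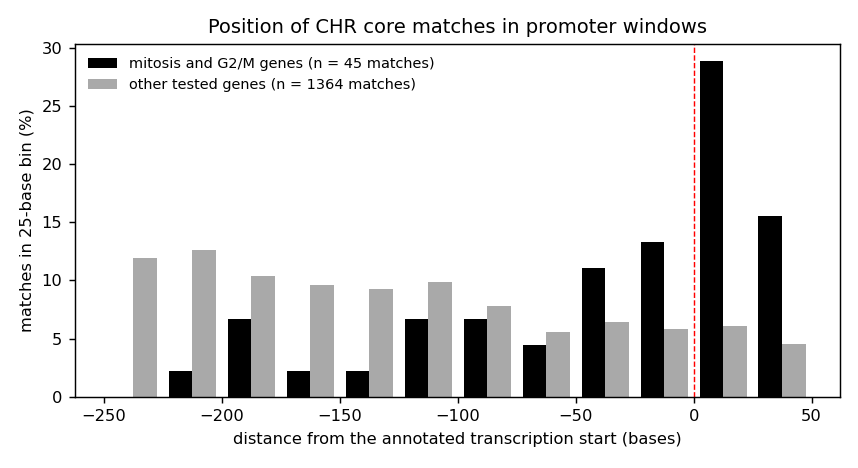
Position of CHR core matches (middle of the match, x axis, bases from the annotated transcription start, dashed line) as the percentage of matches per bin of 25 bases (y axis), for the mitosis and G2/M genes (black, 45 matches) and the other tested genes (grey, 1364 matches). In the mitotic genes 80% of matches lie from 100 bases before to 50 after the start, against 36.3% in the others.

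The windows of the genes that passed with all 8 libraries or without WT library 2 are shown, as far as they were available, because their levels are given above. Each runs 5′ to 3′ on the strand of its gene, from RefSeq on GRCm38.p6, and capitals mark TTTGAA or CCAAT on either strand (TTCAAA and ATTGG where they lie on the other strand).
Hjurp (chr1:88277530-88277829, minus strand): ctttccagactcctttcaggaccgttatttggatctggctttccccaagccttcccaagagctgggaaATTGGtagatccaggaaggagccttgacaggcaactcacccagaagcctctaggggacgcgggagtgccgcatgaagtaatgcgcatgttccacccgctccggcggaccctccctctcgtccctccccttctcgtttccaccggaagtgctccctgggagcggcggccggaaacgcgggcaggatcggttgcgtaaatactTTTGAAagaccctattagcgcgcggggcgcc
Rangap1 (chr15:81729870-81730169, minus strand): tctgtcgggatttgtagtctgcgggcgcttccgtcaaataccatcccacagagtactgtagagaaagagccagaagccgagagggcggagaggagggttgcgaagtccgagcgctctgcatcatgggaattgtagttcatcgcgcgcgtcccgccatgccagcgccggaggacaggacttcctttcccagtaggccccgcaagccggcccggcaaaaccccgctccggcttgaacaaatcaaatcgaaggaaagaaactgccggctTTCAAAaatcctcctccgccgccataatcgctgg
Lbr (chr1:181842352-181842651, minus strand): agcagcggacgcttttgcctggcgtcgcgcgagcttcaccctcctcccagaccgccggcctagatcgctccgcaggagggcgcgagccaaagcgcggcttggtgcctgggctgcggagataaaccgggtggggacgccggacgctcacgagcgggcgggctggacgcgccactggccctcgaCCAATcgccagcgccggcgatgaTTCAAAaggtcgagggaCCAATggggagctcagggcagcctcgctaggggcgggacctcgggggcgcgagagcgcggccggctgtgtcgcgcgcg
Ccnb2 (chr9:70421505-70421804, minus strand): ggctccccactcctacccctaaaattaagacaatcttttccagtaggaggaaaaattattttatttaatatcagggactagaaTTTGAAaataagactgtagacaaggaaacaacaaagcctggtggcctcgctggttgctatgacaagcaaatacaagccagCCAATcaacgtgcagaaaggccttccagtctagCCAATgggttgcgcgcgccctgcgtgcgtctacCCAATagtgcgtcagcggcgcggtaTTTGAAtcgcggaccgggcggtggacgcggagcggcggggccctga
Bub1b (chr2:118597961-118598260, plus strand): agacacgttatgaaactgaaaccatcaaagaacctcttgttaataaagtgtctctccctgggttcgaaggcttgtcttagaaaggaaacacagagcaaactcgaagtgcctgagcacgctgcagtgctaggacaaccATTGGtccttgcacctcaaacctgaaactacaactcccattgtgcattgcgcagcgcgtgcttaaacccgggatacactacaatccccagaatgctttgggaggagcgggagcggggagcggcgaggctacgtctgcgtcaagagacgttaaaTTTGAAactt
Tubb4b (chr2:25224653-25224952, minus strand): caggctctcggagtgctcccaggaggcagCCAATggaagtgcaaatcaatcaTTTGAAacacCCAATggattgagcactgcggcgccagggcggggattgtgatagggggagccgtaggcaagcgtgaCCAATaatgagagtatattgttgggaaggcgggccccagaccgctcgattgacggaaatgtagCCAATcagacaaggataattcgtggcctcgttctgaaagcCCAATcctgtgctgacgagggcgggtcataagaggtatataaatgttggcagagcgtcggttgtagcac

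Rangap1 and Hjurp, which rose, and Lbr, which fell, all held a CHR core near the start, with its middle at position 19 in Rangap1, 22 in Hjurp and -42 in Lbr. Rangap1 held no CCAAT in its window, Hjurp held 1 at -180 and Lbr held 2 at -66 and -26. Ccnb2 held 3 CCAAT matches at -85, -52 and -19 upstream of a CHR core at 7, and a further core at -164. In Tubb4b the core lay at -195, far from the start. Bub1b held a core at 43 and CCAAT at -111. The median deviation from the gene mean in library 4 labelled Nupr1-/- was 0.97 on the log2 scale for the 27 with both and 1.14 for the 16 without both, and in WT library 2 it was 0.69 and 0.73. For the 463 other tested genes with both motifs it was 0.11 and 0.20 in these libraries, and for the 7803 without both 0.05 and 0.02.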

How the data were processed

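Polyadenylated RNA of HSCs from 4 mice labelled Nupr1-/- and 4 WT mice was sequenced from Nextera XT libraries, per the labels' protocols. bcl2fastq, HISAT2, featureCounts (Subread), DESeq2 and the build mm10 are named in the submitters' processing notes, without versions or order. The authors deposited 1 signal table, whose values are read counts divided by a size factor per library. From the values, 100% were whole multiples of 1 read per library (tolerance 0.001). The step of WT library 3 is 0.997, so its recovery rests on its low values. The row without a name held at most 0.00109% of a library's reads and was left out.

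Values were tested as log2(value + 1) with limma 3.58.1 (trend and robust, R 4.3.3), all 8 libraries in 1 fit without covariates, for the 10989 genes with at least 10 normalised reads in at least 4 libraries. P-values are two-sided and Benjamini-Hochberg adjusted, with a threshold of 0.05, and differences are Nupr1-/- minus WT on the log2(value + 1) scale. The added 1 shrinks differences of evenly low genes, while a value near 0 in 1 library can enlarge them. Intervals are 95% intervals. The fit was tested on simulated data. As alternatives, edgeR 4.0.16 (quasi-likelihood, 307 genes called with TMM factors) and DESeq2 1.42.0 were run on the recovered reads, besides other pseudocounts, no filter, a GC and length trend (splines with 4 degrees of freedom), a replicate block and each library left out. GENCODE M21 matched 11716 of 11853 symbols, 453 through an older symbol. Levels per kilobase of exon are divided by the merged exons of all annotated transcripts of a gene. Their comparison between genes thus depends on which transcripts are annotated.

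The members and lists were chosen with earlier results of these data known. Named were all members past the threshold, in each role the 2 of smallest p and the most abundant, 12 fixed mitotic genes, and of the other mitotic genes those past the threshold and 5 fixed ones. Further genes are named to fill out their role or list and were chosen after their values were seen. Each library is 1 mouse, per the labels. Floors and intervals of reads cover counting error only.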

Additional observations from a re-analysis of the deposited data

Results flagged for a closer look

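In 96 groups of 4 libraries (48 genes in each genotype), 10 held 1 library far from the other 3 by Dixon's test. For independent groups of normal values chance gives about 1 in 20. The genes here share the same libraries, so the 10 are not a measure of excess over chance. Of these, 4 were library 4 labelled Nupr1-/-, 4 were WT library 2 and 2 were WT library 3. Library 4 labelled Nupr1-/- stood high for Cenpf (201 normalised reads), Tpx2 (347), Nusap1 (257) and Hmmr (199). WT library 2 stood high for Bub1b (429), Kif2c (68.0), Tpx2 (302) and Ckap2l (233). WT library 3 stood low for Birc5 (78.8) and high for Gtse1 (16.0).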

How the results depend on the processing

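The count of all genes called was 418 and ran to 775 in DESeq2, 28 with the GC and length trend removed, 277 with the replicate block, 27 with block and trend, and 247 with WT library 2 left out and the trend removed. For the 47 mitotic genes, 3 calls became 5 in DESeq2, 0 with the trend removed, 0 with the block, 0 with both and 1 (Hjurp) without WT library 2 and the trend. For the other mitotic genes, 2 calls became 4 with pseudocount 5 or 10, 5 in DESeq2, 1 with no filter, in edgeR (TMM or RLE) or with the block, and 0 with the trend removed, alone or with the block. Leaving out 1 library gave 48 to 883 calls over all genes, 0 to 7 among the 47 and 0 to 6 among the other mitotic genes, and a median of the 47 from -0.09 to 0.49. No pairing by replicate number was seen: same-numbered libraries correlated at -0.0566 to 0.0148, and none correlated best with its own number. These correlations across genes could miss a weak shared effect. With the block the adjusted p in limma was 0.0596 for Hjurp, 0.0560 for Rangap1 and 0.0542 for Lbr.

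Some log2 differences changed sign. In edgeR, Anln was -0.15, Cks2 0.07 and Top2a -0.07, and in DESeq2 -0.16, 0.07 and -0.07. With the trend removed, with or without the block, Cks2 was 0.45, Gas2l3 0.06 and Hmgb2 0.19. With the trend removed and WT library 2 left out, Cks2 was 0.87, Gas2l3 0.26, Hmgb2 0.39, Kif23 0.07 and Tmpo 0.12. With 1 library left out, Anln ran from -0.90 to 1.47, Aurka from -0.03 to 0.66, Birc5 from -0.09 to 0.74, Cdc20 from -0.35 to 0.30, Cdk1 from -0.17 to 0.56, Cenpa from -0.03 to 0.38, Cks2 from -0.38 to 0.32, Tmpo from -0.46 to 0.01 and Top2a from -0.53 to 0.53. The cause was not tested. Of the values of single named genes under alternatives, 409 kept direction and side of the threshold, 34 lost the call, 6 gained it and 36 changed sign. Bub1, Ttk and Cenpe, each with 0 reads in at least 1 library and over 100 normalised reads in another, had wide intervals, which go with that spread.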
